A study of Mus musculus with 12 samples.

Results

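The sodium-potassium pump genes described here were the 3 β subunit genes Atp1b1, Atp1b2 and Atp1b3 and the 3 FXYD genes Fxyd1, Fxyd6 and Fxyd7, 6 of the 55401 genes in the deposited tables. Their names were chosen from FPKM values of these same 12 samples, with the differences between NAD+ and Ctrl and between the conditions already known. Their values are therefore given as a description, and the p-values of the fits over all genes are no independent evidence about them. FPKM, a fragment count scaled to the length of the transcript and to the mapped fragments of the sample, allows levels to be compared between genes. The samples were cultures of adult neural stem/progenitor cells (aNSPCs) from the forebrain of C57BL/6 mice aged 8 to 10 weeks, grown with the mitogens EGF and FGF-2. There were 4 groups of 3 samples: proliferating cells without NAD+ (proliferating Ctrl) or with NAD+ (proliferating NAD+), and cells under differentiation conditions, which per the study's methods means retinoic acid and forskolin, without NAD+ (differentiation Ctrl) or with NAD+ (differentiation NAD+). NAD+ was nicotinamide adenine dinucleotide, added to the cells at a millimolar concentration per the study. The groups follow the sample titles, whereas a treatment field lists all 12 samples as untreated. The study calls the samples of a group biological repeats, but no source used here says that they came from separate mice or cultures, so the p-values measure the spread between these samples, which may be in part technical.

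The sodium-potassium pump moves sodium out of the cell and potassium into it, and it uses ATP to do so. Its catalytic subunit carries the ions, a glycosylated β subunit is needed to fold the catalytic one and bring it to the membrane, and a small FXYD protein can attach and adjust the affinity of the pump for its ions. In the brain the β2 subunit is typical of astrocytes, which take up the potassium that active neurons release.

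The cultures carried stem and glial markers. All 8 stem/progenitor markers were above 0 in every sample, and their summed FPKM was 2633 to 2885 in proliferating Ctrl, 1624 to 2145 in proliferating NAD+ and 734 to 827 in the differentiation samples. The 8 oligodendrocyte lineage markers summed to 1259 to 1370 in proliferating Ctrl, 1007 to 1042 in proliferating NAD+, 357 to 382 in differentiation Ctrl and 298 to 343 in differentiation NAD+. Olig1 and Olig2 held most of these sums, with means of 961 and 334 FPKM in proliferating Ctrl and 224 and 118 FPKM in differentiation Ctrl. Sox10, Mbp and Mag had higher means in differentiation Ctrl (9.21, 5.37 and 3.28 FPKM) than in proliferating Ctrl (5.34, 0.557 and 0.08 FPKM). The stem/progenitor, astrocyte and oligodendrocyte lineage sums were lower with NAD+ in proliferating cells, without overlap, and their part in the results there was not tested. Most of the stem/progenitor difference was that of Fabp7, with means of 2107 FPKM in proliferating Ctrl and 1317 FPKM in proliferating NAD+. Nes (68.8 and 82.0 FPKM) and Mki67 (33.1 and 43.0 FPKM) had higher means with NAD+, so the sum does not describe every marker. All 9 astrocyte markers were also above 0 in every sample, with sums of 1118 to 1200 in proliferating Ctrl, 913 to 1070 in proliferating NAD+, 1648 to 1772 in differentiation Ctrl and 2000 to 2112 in differentiation NAD+. The 9 neuron markers summed to 23.5 to 36.1 in all samples, and the microglia and endothelial sums never passed 0.44. Replicate 1 of proliferating Ctrl stood apart, with an FPKM sum of 363330 against 308828 to 314683 in the other 5 proliferating samples and a Mki67 level of 19.8 FPKM against 39.3 to 45.4. Replicate 1 of each proliferating group also held the highest Aqp4 value of its group, 13.7 and 9.95 FPKM, against 2.42 to 5.82 in the other 4 proliferating samples. In bulk samples like these, fewer cells of a type and less RNA per cell cannot be told apart.

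The genes lie on 4 chromosomes of mm10. Atp1b1 spans chr1:164437109-164458355 on the minus strand, Atp1b2 spans chr11:69599736-69605942 on the minus strand and Atp1b3 spans chr9:96332655-96364442 on the minus strand. Fxyd6 spans chr9:45370185-45396159 on the plus strand. Fxyd7 (chr7:31042513-31051467) and Fxyd1 (chr7:31051678-31057199) are neighbours on the minus strand, with 210 bases between them. Of the 6 genes, Atp1b1 was the one whose exons overlap another gene, sharing 575 bases with Nme7 on the opposite strand, which had a mean of 2.09 FPKM over the 12 samples. The sources used here do not say whether the counting used strand, so reads from the shared stretch cannot be assigned to one of the pair.

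RefSeq promoters (GRCm38.p6, 250 bases before to 50 after the start) were matched by symbol for 4 of the 6 genes, Atp1b1, Atp1b3, Fxyd1 and Fxyd6. GC content was 71% in Atp1b1, 76% in Atp1b3, 58.7% in Fxyd1 and 54.3% in Fxyd6, against a median of 52.7% over 32851 promoters. The CpG count was 31 in Atp1b1, 34 in Atp1b3, 6 in Fxyd1 and 12 in Fxyd6, against a median of 7. Both β promoters held far more CpG than the median promoter, and the Fxyd1 promoter held 1 fewer. The promoters of Atp1b3, Fxyd1 and Fxyd6 are printed because they are, of these 4, the richest in CpG, the poorest in CpG, and that of the FXYD gene with the highest level in proliferating cells. They are chr9:96364382-96364681 (minus strand), chr7:31054804-31055103 (minus strand, with its start inside the Fxyd1 span given above) and chr9:45369935-45370234 (plus strand). Capitals mark matches on either strand to 5 motifs.
Atp1b3: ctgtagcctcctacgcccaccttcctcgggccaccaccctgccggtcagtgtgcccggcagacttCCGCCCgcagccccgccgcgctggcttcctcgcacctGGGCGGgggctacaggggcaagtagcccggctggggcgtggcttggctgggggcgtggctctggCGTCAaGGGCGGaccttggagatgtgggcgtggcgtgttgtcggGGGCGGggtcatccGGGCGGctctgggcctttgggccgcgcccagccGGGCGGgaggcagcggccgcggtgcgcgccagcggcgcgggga
Fxyd1: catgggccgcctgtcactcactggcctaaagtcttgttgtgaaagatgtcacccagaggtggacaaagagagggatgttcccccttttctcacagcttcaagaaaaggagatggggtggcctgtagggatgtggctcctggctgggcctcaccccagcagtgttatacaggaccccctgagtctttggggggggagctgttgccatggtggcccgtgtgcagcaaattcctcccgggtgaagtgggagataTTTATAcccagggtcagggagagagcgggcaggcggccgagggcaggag
Fxyd6: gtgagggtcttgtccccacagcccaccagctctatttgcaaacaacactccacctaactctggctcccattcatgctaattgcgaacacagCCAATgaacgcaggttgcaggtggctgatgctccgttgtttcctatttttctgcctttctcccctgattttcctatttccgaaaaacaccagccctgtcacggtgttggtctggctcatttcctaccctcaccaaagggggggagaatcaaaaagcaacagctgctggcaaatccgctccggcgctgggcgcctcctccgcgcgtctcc

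The motifs were TGACG (a core of the cAMP response element, found in 20.8% of all promoters), AGGTCA (a nuclear receptor motif, 16.3%), CCAAT (37.4%), GGGCGG (the GC box, 35.7%) and TATAAA (the TATA box, 13.6%), and no matches overlapped. The Atp1b3 promoter held 6 GGGCGG matches and 1 TGACG match. The Fxyd1 promoter held 1 TATAAA match, on the opposite strand, and the Fxyd6 promoter held 1 CCAAT match. The Atp1b1 promoter, not printed, held 2 CCAAT and 2 GGGCGG matches. A match is a run of letters in this window and not a binding site.

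**Figure D1:**
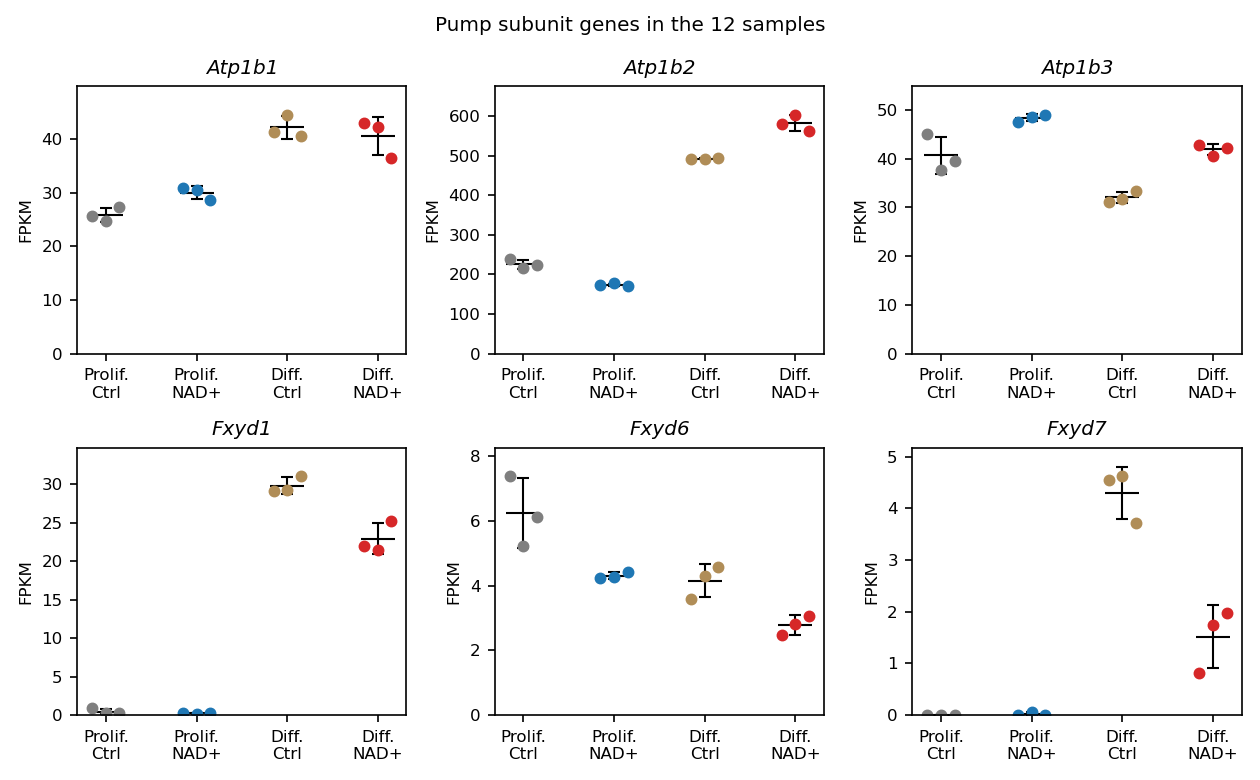
FPKM of the 6 genes in the 12 samples, 1 panel a gene, with the 4 groups on the horizontal axis, 1 point a sample, and a line and bar for the mean and SD of 3 samples. Atp1b2 runs from 171 to 603 FPKM, Fxyd1 is at or under 0.86 FPKM in all proliferating samples, and Fxyd7 is at or under 0.06 FPKM there.

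Atp1b2, the β2 subunit, which is also known as an adhesion molecule on glia, had the highest level of the 6 genes in every sample. Its FPKM was 238.39, 215.14 and 223.48 in proliferating Ctrl, 172.48, 177.23 and 171.37 in proliferating NAD+, 491.60, 492.26 and 493.82 in differentiation Ctrl, and 579.84, 603.42 and 563.28 in differentiation NAD+. No group overlapped another, and NAD+ samples lay below Ctrl in proliferating cells and above Ctrl under differentiation conditions. The means were 226 ± 11.8 and 174 ± 3.11 FPKM in proliferating Ctrl and NAD+ and 493 ± 1.14 and 582 ± 20.2 FPKM in the differentiation groups (SD, n = 3 each).

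Atp1b1, the most widely expressed β subunit, had FPKM values of 25.70, 24.64 and 27.31 in proliferating Ctrl, 30.93, 30.55 and 28.59 in proliferating NAD+, 41.33, 44.58 and 40.69 in differentiation Ctrl, and 43.01, 42.22 and 36.57 in differentiation NAD+. The proliferating groups did not overlap, with NAD+ above Ctrl, whereas the differentiation groups did overlap. Atp1b3, the β3 subunit, had FPKM values of 45.01, 37.72 and 39.54 in proliferating Ctrl, 47.64, 48.67 and 49.05 in proliferating NAD+, 31.14, 31.71 and 33.37 in differentiation Ctrl, and 42.88, 40.65 and 42.20 in differentiation NAD+. NAD+ samples lay above Ctrl in both conditions without overlap. The order of the β genes by mean FPKM was Atp1b2, Atp1b3, Atp1b1 in the proliferating groups, and Atp1b2, Atp1b1, Atp1b3 in differentiation Ctrl. In differentiation NAD+ the values of Atp1b3 and Atp1b1 overlapped.

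Fxyd1, or phospholemman, a regulator of the pump that protein kinase A and C phosphorylate, had FPKM values of 0.86, 0.21 and 0.26 in proliferating Ctrl and 0.23, 0.14 and 0.28 in proliferating NAD+. Under differentiation conditions they were 29.16, 29.29 and 31.05 in Ctrl and 22.02, 21.48 and 25.21 in NAD+. The proliferating groups overlapped, every differentiation sample lay far above them, and the differentiation NAD+ samples lay below Ctrl. The highest proliferating value, 0.86 FPKM, came from replicate 1 of Ctrl.

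Fxyd6, or phosphohippolin, had FPKM values of 7.38, 5.22 and 6.13 in proliferating Ctrl, 4.23, 4.25 and 4.43 in proliferating NAD+, 3.59, 4.30 and 4.56 in differentiation Ctrl, and 2.47, 2.81 and 3.07 in differentiation NAD+. NAD+ samples lay below Ctrl in both conditions without overlap, while proliferating NAD+ and differentiation Ctrl overlapped. Fxyd7, a brain FXYD protein, was listed at 0 in all 3 proliferating Ctrl samples and at 0, 0.06 and 0 FPKM in proliferating NAD+. It had 4.55, 4.62 and 3.72 FPKM in differentiation Ctrl and 0.82, 1.74 and 1.97 FPKM in differentiation NAD+. The differentiation groups did not overlap, and the lowest NAD+ value was that of replicate 1. In proliferating cells Fxyd6 was the highest of the 3 FXYD genes in every sample, and under differentiation conditions Fxyd1 was.

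The makeup of the transcripts is a ratio within each sample, which a single scaling factor per sample leaves as it is. Atp1b2 made up 77.2 ± 0.286% of the summed β FPKM in proliferating Ctrl, 68.9 ± 0.209% in proliferating NAD+, 86.9 ± 0.290% in differentiation Ctrl and 87.6 ± 0.432% in differentiation NAD+ (SD, n = 3 each). The proliferating samples ranged from 76.97% to 77.53% in Ctrl and from 68.7% to 69.1% in NAD+. The proliferating groups thus lay far apart relative to their spread, and the differentiation groups overlapped, at 86.6% to 87.2% in Ctrl and 87.1% to 87.9% in NAD+. The share of Atp1b3 was 13.9 ± 0.552% and 19.2 ± 0.416% in proliferating Ctrl and NAD+, and that of Atp1b1 was 8.87 ± 0.546% and 11.9 ± 0.419% (SD, n = 3 each). Under differentiation conditions the Atp1b1 share was 7.17% to 7.84% in Ctrl and 5.70% to 6.46% in NAD+, and the Atp1b3 share 5.52% to 5.88% in Ctrl and 5.92% to 6.57% in NAD+, neither with overlap.

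Among the 3 FXYD genes, Fxyd6 made up 89.6% to 96.1% of the summed FPKM in the proliferating samples and 9.62% to 11.6% in the differentiation samples. Fxyd1 made up 76.7% to 78.9% in differentiation Ctrl and 82.5% to 87.0% in differentiation NAD+. Fxyd7 made up 9.46% to 12.2% in differentiation Ctrl and 3.24% to 6.68% in differentiation NAD+. So the leading one of these 3 FXYD transcripts differed between the conditions. Under differentiation conditions the share of Fxyd7 was lower and that of Fxyd1 higher with NAD+, without overlap, although the FPKM of both was lower. These shares leave out Fxyd3, which had means of 6.66 and 5.47 FPKM in differentiation Ctrl and NAD+. Both means were above those of Fxyd6 and Fxyd7 there.

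The summed FPKM of the 3 β genes was 292 ± 15.9 in proliferating Ctrl, 252 ± 3.84 in proliferating NAD+, 567 ± 2.42 in differentiation Ctrl and 665 ± 22.1 in differentiation NAD+ (SD, n = 3 each). The summed FPKM of the 3 FXYD genes was 6.69 ± 1.43, 4.54 ± 0.147, 38.3 ± 1.02 and 27.2 ± 2.67 in the same order. Without overlap between the groups, with NAD+ the FXYD sum was lower in both conditions, while the β sum was lower in proliferating cells and higher under differentiation conditions.

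**Figure D2:**
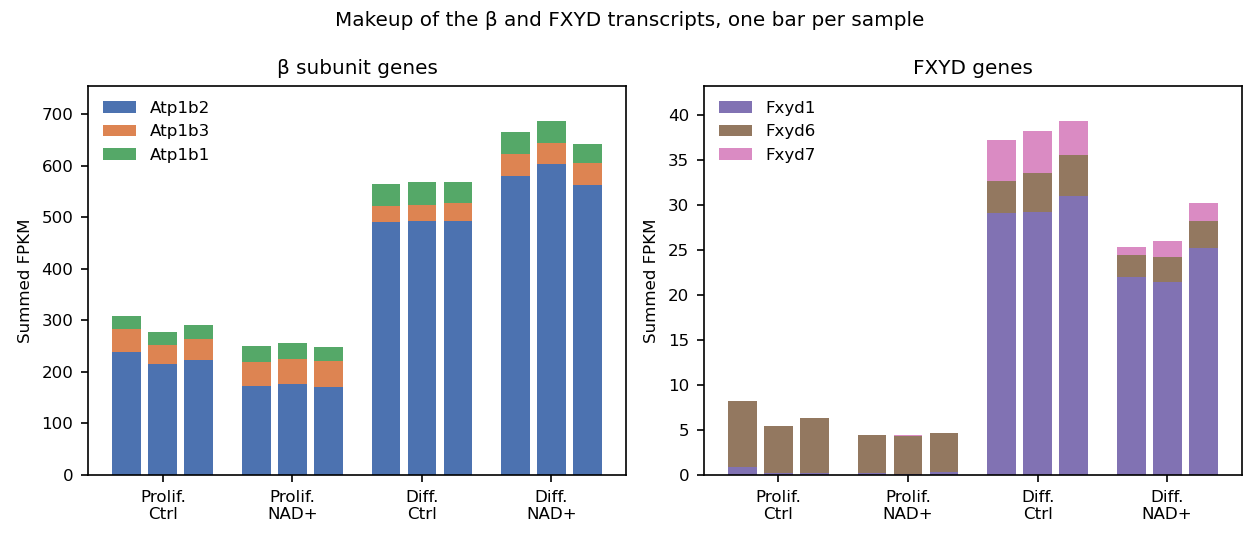
Summed FPKM of the β genes (left) and of Fxyd1, Fxyd6 and Fxyd7 (right), 1 stacked bar a sample in the 4 groups, coloured by gene. Atp1b2 fills 68.7% to 87.9% of every β bar, and the FXYD bars change from mostly Fxyd6 in proliferating cells to mostly Fxyd1 under differentiation conditions.

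The first comparison asked what NAD+ did in proliferating cells. None of the 5 genes that could be tested had an adjusted p under 0.05 (limma on log2(FPKM + 0.1), Benjamini-Hochberg adjustment over 18597 genes, of which 27, or 0.145%, passed). Fxyd7 was under the filter of a mean of 0.1 FPKM. On this scale, which understates the change of low genes, the log2 fold change was -0.38 (SE 0.08, adjusted p = 0.120) for Atp1b2, 0.25 (SE 0.09, adjusted p = 0.257) for Atp1b3 and 0.21 (SE 0.08, adjusted p = 0.276) for Atp1b1. It was -0.51 (SE 0.14, adjusted p = 0.189) for Fxyd6 and -0.61 (SE 0.48, adjusted p = 0.563) for Fxyd1. The groups did not overlap for 4 of the 5 tested genes, Fxyd1 being the exception, against 24.1% of all tested genes. The same 4 had an unadjusted p under 0.05, as did 15.4% of all tested genes. By the rule of the study, an unadjusted p under 0.05 and a ratio of mean FPKM above 2 in either direction, 0 of these genes were called, against 3.01% of all tested genes. Without replicate 1 of Ctrl, the log2 fold change of Fxyd1 was -0.10, and those of Atp1b2, Atp1b3, Atp1b1 and Fxyd6 were -0.34, 0.33, 0.21 and -0.39. For single genes, 3 samples against 3 allow an exact two-sided permutation p no lower than 0.10, which all of the non-overlapping genes reached.

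The second comparison asked the same under differentiation conditions. Atp1b3 and Atp1b2 rose and Fxyd1 and Fxyd7 fell, 4 of the 6 genes at an adjusted p under 0.05 (limma, 19611 genes). Of all tested genes 6.92% passed, 2.27% higher and 4.65% lower. The log2 fold change of Atp1b3 was 0.39 (SE 0.05, adjusted p = 0.0111), a mean ratio of 1.31. That of Atp1b2 was 0.24 (SE 0.05, adjusted p = 0.0349), a ratio of 1.18. The log2 fold change of Fxyd1 was -0.38 (SE 0.07, adjusted p = 0.0324), with a mean 1.30 times as high in Ctrl, and that of Fxyd7 was -1.53 (SE 0.31, adjusted p = 0.0370), with a mean 2.85 times as high in Ctrl.

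Fxyd6 had a log2 fold change of -0.56 (SE 0.13, limma adjusted p = 0.0526), just outside the threshold, and Fxyd7 was just inside it. Atp1b1 had a log2 fold change of -0.06 (95% interval -0.24 to 0.13, limma adjusted p = 0.692). The groups did not overlap for 5 of the 6 genes, all but Atp1b1, against 30.7% of all tested genes. Fxyd7 was the only one of the 6 called by the rule of the study, against 4.05% of all tested genes.

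These calls depended on the processing to different degrees. The call of Atp1b2 was lost in 10 of 14 alternatives, that of Fxyd7 in 9 and that of Fxyd1 in 8, while that of Atp1b3 was lost in 2. Quantile normalization left a log2 fold change of 0.09 for Atp1b2 (limma adjusted p = 0.240). Leaving out any 1 of the 6 samples ended the call of Atp1b2, with adjusted p from limma between 0.0680 and 0.123. The call of Fxyd1 was lost with both other scalings (limma adjusted p = 0.0766 and 0.0629) and without any 1 sample other than replicate 3 of NAD+, that of Fxyd7 without any 1 sample other than replicate 1 of NAD+, and that of Atp1b3 without replicate 1 of Ctrl (limma adjusted p = 0.0537). All these alternatives kept the direction of the 4 genes.

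**Figure D3:**
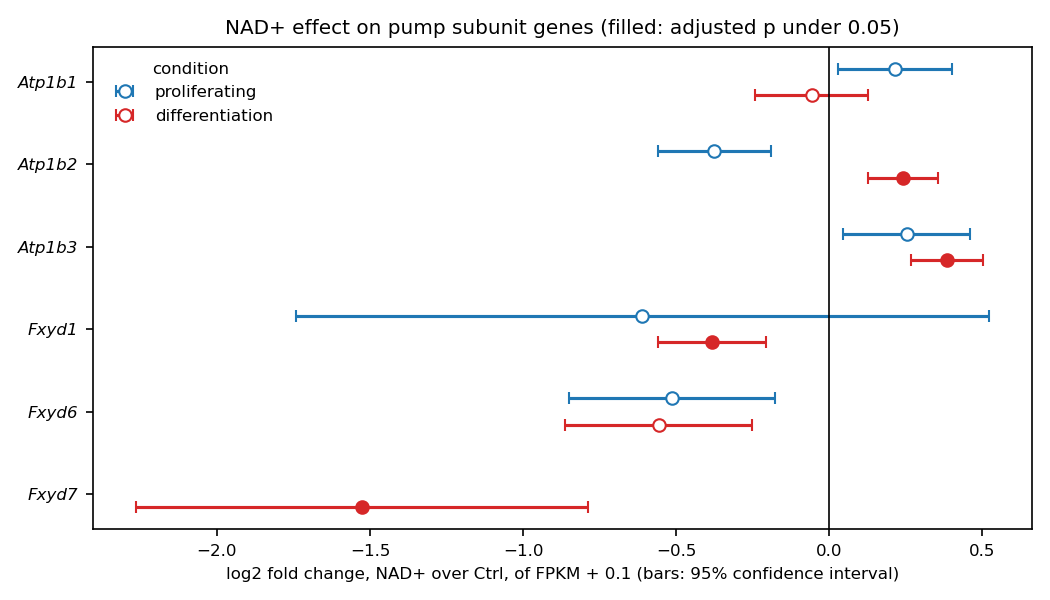
Log2 fold change of NAD+ over Ctrl on the log2(FPKM + 0.1) scale for the 6 genes, with 95% confidence intervals, blue for proliferating and red for differentiation conditions and filled symbols for an adjusted p under 0.05. Atp1b2 lies at -0.38 in proliferating cells and at 0.24 under differentiation conditions, and Fxyd7 at -1.53 under differentiation conditions.

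The third comparison asked whether the NAD+ effect differed between the conditions, in a limma fit of all 12 samples. The difference, the effect under differentiation conditions minus that in proliferating cells, was 0.62 for Atp1b2 (SE 0.09, 95% interval 0.43 to 0.81, adjusted p = 0.0177), whose 2 effects had opposite signs. It was the only one of the 6 genes with an adjusted p under 0.05, which 0.467% of 19498 tested genes had, 0.221% with a higher value under differentiation conditions. Of the others, the largest difference was -1.75 for Fxyd7 (SE 0.44, limma adjusted p = 0.110), which rests on proliferating values at or near 0. The difference was -0.27 for Atp1b1, 0.13 for Atp1b3, 0.23 for Fxyd1 and -0.05 for Fxyd6, with limma adjusted p between 0.266 and 0.935. The median of all genes was itself -0.16 here and -0.0042 after median-ratio scaling. Relative to the median of all genes, Atp1b2 differed by 0.77. Its call was lost in 7 of 20 alternatives, among them quantile normalization (0.33, limma adjusted p = 0.067) and leaving out replicate 3 of proliferating NAD+ or any 1 differentiation Ctrl sample (0.61 to 0.62, limma adjusted p between 0.0535 and 0.0687), and each of those kept the sign.

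The last comparison set the conditions against each other, without and with NAD+. The conditions were deposited as separate tables, so condition and table cannot be told apart. Fxyd7 passed the filter of the 12-sample limma fit only through its differentiation samples, so its direction was fixed and it is not counted here. All the other genes of the 6 had an adjusted p under 0.05 both without NAD+ and with it, where 56.7% and 58.4% of all tested genes did. For each of them the groups stood clear of each other, as they did for 61.7% and 66.3% of all tested genes. Both comparisons put Atp1b1, Atp1b2 and Fxyd1 higher and Atp1b3 and Fxyd6 lower under differentiation conditions. Of all tested genes 25% were higher and 31.6% lower without NAD+, and 20.8% were higher and 37.6% lower with NAD+.

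Without NAD+, the mean of Fxyd1 was 67.3 times as high under differentiation conditions (log2 fold change 5.98, SE 0.35), or 127 times without replicate 1 of proliferating Ctrl, that of Atp1b2 2.18 times (1.13, SE 0.06) and that of Atp1b1 1.63 times (0.70, SE 0.08). Fxyd7 was listed at 0 in every proliferating Ctrl sample, so no fold is given. Fxyd6 fell by 0.57 on the log2 scale (SE 0.14). With NAD+, Atp1b2 had a log2 fold change of 1.74 (SE 0.06), Atp1b1 of 0.43 (SE 0.08), Fxyd1 of 6.20 (SE 0.35) and Fxyd6 of -0.62 (SE 0.14). These comparisons share their samples with those of NAD+ against Ctrl, and the difference between them is the same contrast as the third comparison.

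Atp1b3 was lower under differentiation conditions on the deposited scale, by -0.34 without NAD+ (SE 0.07) and -0.21 with NAD+ (SE 0.07) on the log2 scale, and turned to 0.10 (limma adjusted p = 0.182) and 0.28 (limma adjusted p = 0.0017) with quantile normalization. The value with NAD+ was thus called in the opposite direction there, and with median-ratio scaling it was 0.17 (limma adjusted p = 0.0979). Relative to the median of all genes, which was -0.06 without NAD+ and -0.20 with NAD+ and moved to 0.14 in both with median-ratio scaling, Atp1b3 stood at -0.28 without NAD+ and at -0.0065 with NAD+. With NAD+ the call of Atp1b3 was also lost without replicate 2 or 3 of proliferating NAD+ or replicate 2 of differentiation NAD+ (limma adjusted p between 0.0562 and 0.0691). The lower value of Fxyd6 lost its call with median-ratio scaling in both comparisons and with quantile normalization in the comparison with NAD+. Atp1b1, Atp1b2 and Fxyd1 kept their direction and their call in all 20 alternatives of each comparison. So did Fxyd7, whose direction was fixed by the filter.

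Glial markers moved with the same groups, in both directions. Between the conditions without NAD+, 5 of the 9 astrocyte markers rose and 2 fell (limma), where 25% of all tested genes were higher and 31.6% lower. Gfap, the astrocyte filament gene, had 17.5 to 20.2 FPKM in proliferating Ctrl, 546 to 642 in differentiation Ctrl and 965 to 999 in differentiation NAD+. S100b and Aldoc, which also mark astrocytes, had means of 163 and 537 FPKM in proliferating Ctrl and 94.8 and 333 FPKM in differentiation Ctrl. Of the 9 astrocyte markers, 3 rose and 2 fell with NAD+ under differentiation conditions, with 4 not called (limma) and a median log2 fold change of -0.31 against -0.085 for all genes. Of all tested genes 2.27% were higher and 4.65% lower in that comparison. Of the 7 tested oligodendrocyte lineage markers 0 were called there by limma or by the rule of the study, against 6.92% and 4.05% of all tested genes. An unadjusted p under 0.05 was found for 4 of them. The share of all tested genes with such a p was not computed for this comparison, so that count has no background to be read against. Between the conditions without NAD+, 3 of 7 tested markers of this lineage rose and 2 fell (limma), with a median log2 fold change of 0.32 against -0.06 for all genes. Mag, which is among the 7, had means of 0.08 and 0.11 FPKM in proliferating Ctrl and NAD+. It passed the filter of that fit only through its differentiation samples, so its direction was fixed, although the count and the median include it. The part of these markers in the results for the 6 genes was not tested. The microglia markers summed to at most 0.38 FPKM and the endothelial markers to at most 0.23 FPKM in the differentiation samples, and the choroid plexus markers to at most 1.39 FPKM, with 4 of the 5 under 1 FPKM in all samples.

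Further FXYD genes, the NKAIN genes and other subunits came from a list of 10 genes, 6 of which reached a mean of 0.1 FPKM over the 12 samples, Fxyd3, Fxyd5 and Nkain1 to Nkain4. Nkain4, which encodes a protein that interacts with the pump's β1 subunit, had 16.40, 14.94 and 19.77 FPKM in differentiation Ctrl and 7.95, 7.22 and 8.27 in differentiation NAD+, a log2 fold change of -1.11 (SE 0.11, limma adjusted p = 0.0067). The other 5 of the 6 genes were not called with NAD+ under differentiation conditions: their log2 fold changes were -0.27 for Fxyd3, -0.50 for Fxyd5, -0.38 for Nkain1, -0.15 for Nkain2 and 0.27 for Nkain3. In proliferating cells 0 of the 4 tested genes of the list, the NKAIN genes, were called by limma or by the rule of the study, and 0 had an unadjusted p under 0.05. Between the conditions without NAD+, Nkain1 (-1.62) and Nkain3 (-2.53) fell and Nkain4 (1.59) and Nkain2 (1.07) rose on the log2 scale in the limma fit. Fxyd3 and Fxyd5 passed the filter of that fit only through their differentiation samples, so their direction was fixed and is not counted. Fxyd5 had 0 to 0.04 FPKM in the proliferating samples and 0.06 to 0.32 FPKM in the differentiation samples.

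Other genes of sodium and potassium handling were counted from 3 further lists. With NAD+ under differentiation conditions, 2.27% of all tested genes were higher and 4.65% lower at an adjusted p under 0.05 (limma). Of 27 tested sodium-driven carriers and exchangers 6 rose and 5 fell, with a median log2 fold change of -0.08 against -0.085 for all genes. The largest rises were those of Slc38a2, a glutamine and alanine carrier (0.85), and Slc5a3, a myo-inositol carrier (0.69), and the largest falls those of Slc24a3 (-0.87) and Slc24a4 (-0.64), which encode sodium, calcium and potassium exchangers. Of 15 partners and kinases of the pump 1 rose and 4 fell. Mlc1, a membrane protein of astrocytes, rose (0.51), and Kcnj10, the potassium channel Kir4.1, and Ppp1r1a, a phosphatase inhibitor, fell (-1.12 and -1.06). Of 7 tested other P-type pumps 0 were called by limma or by the rule of the study. An unadjusted p under 0.05 was found for 1 of them, and the share of all tested genes was not computed for that measure. In proliferating cells 0 of 6 tested P-type pumps, 0 of 27 carriers and 0 of 15 partners were called by limma or by the rule of the study, against 0.145% and 3.01% of all tested genes. An unadjusted p under 0.05 was found for 1, 9 and 4 of them, and for 15.4% of all tested genes. Slc38a2 was the only gene of these 3 lists called for the difference of the NAD+ effect (0.79, limma adjusted p = 0.0467).

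Between the conditions without NAD+, 3 of 7 other P-type pumps, 14 of 27 sodium-driven carriers and 5 of 15 partners rose, and 1, 3 and 7 fell (limma), where 25% of all tested genes were higher and 31.6% lower. The largest called rises without NAD+ were Atp2b4 (1.51) and Atp2a2 (0.71), calcium pumps, Slc24a4 (3.58) and Slc1a1 (2.27), and Aqp4 (2.20) and Sgk1 (0.80). The largest falls were Atp4a (-0.83), Slc1a5 (-0.98), Slc1a4 (-0.75), Prkaca (-1.02) and Kcnj10 (-0.67). With NAD+, the largest rises were Atp2b4 (1.32), Atp2b2 (1.27), Slc38a1 (2.55), Slc24a4 (2.38), Aqp4 (2.73) and Mlc1 (1.21), and the largest falls Atp4a (-0.96), Slc1a4 (-0.65), Slc1a5 (-0.59), Kcnj10 (-1.38) and Prkaca (-1.16). Atp2b2, which is among the 7 pumps, passed the filter of the 12-sample fit only through its differentiation samples. Its means were 0.05 FPKM in proliferating NAD+ and 0.257 FPKM in differentiation NAD+, so its rise is named but not counted as a result.

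**Figure D4:**
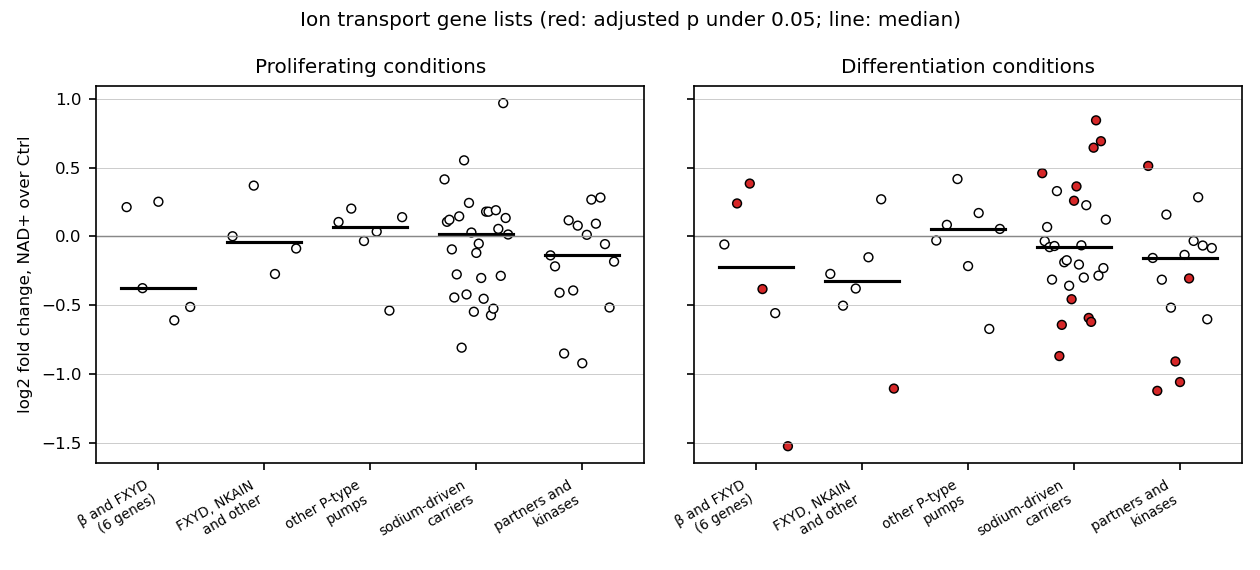
Log2 fold change of NAD+ over Ctrl for each tested gene of the 5 lists, 1 point a gene, red for an adjusted p under 0.05 and a line for the median of a list, with proliferating conditions on the left and differentiation conditions on the right. No point is red in proliferating cells, and under differentiation conditions called genes lie on both sides of 0 among the 6 genes, the carriers and the partners.

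Fxyd1 and Fxyd7 sit among genes of their own kind. Within 50 kb of Fxyd1 the annotation lists 6 protein-coding genes including both, in the order Fxyd5, Fxyd7, Fxyd1, Lgi4, Fxyd3 and Hpn along the chromosome. Lgi4, which encodes a secreted glial protein, had 0.25 to 0.37 FPKM in proliferating Ctrl and 32.1 to 33.0 FPKM in differentiation Ctrl, and Fxyd3 was listed at 0 in all 6 proliferating samples and had 5.25 to 7.61 FPKM under differentiation conditions. Lgi4 and Fxyd3 share 2059 exon bases on opposite strands, and since the use of strand is not stated, their reads cannot be told apart there. With NAD+ under differentiation conditions, Lgi4 stood at -0.24 on the log2 scale (limma adjusted p = 0.138) and Fxyd3 at -0.27 (limma adjusted p = 0.167). Fxyd5 and Hpn, at the edges, had means of 0.0133 and 0.07 FPKM in proliferating Ctrl and of 0.237 and 0.43 FPKM in differentiation Ctrl.

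**Figure D5:**
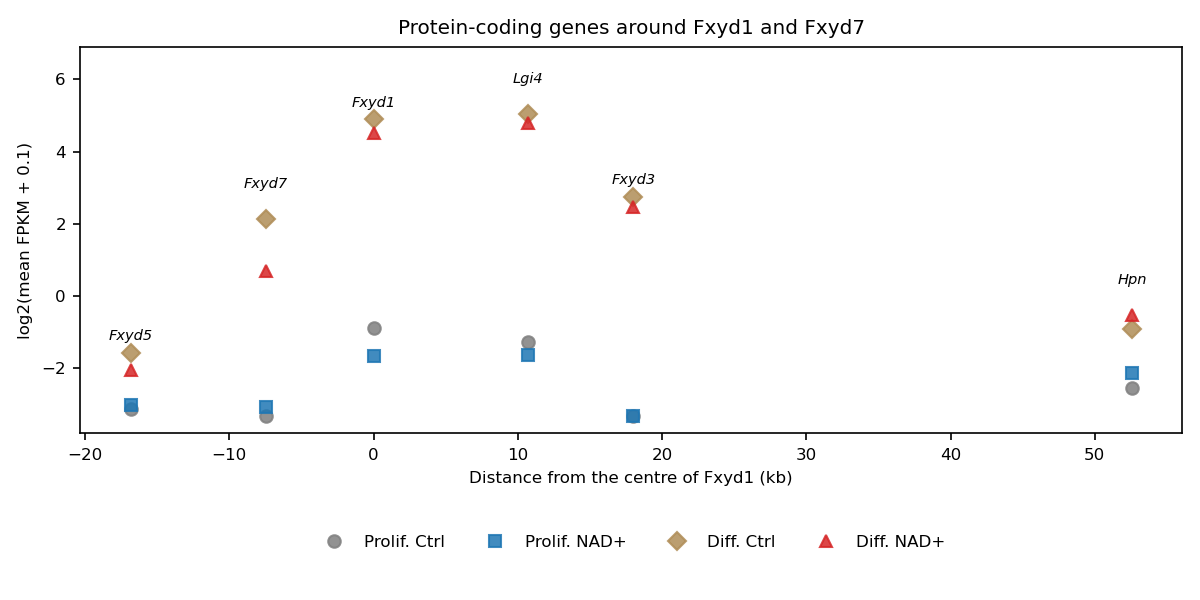
Mean FPKM (log2 scale, 0.1 added) of the 6 protein-coding genes within 50 kb of Fxyd1, in the 4 groups, by distance of the gene's centre from that of Fxyd1 in kb. Fxyd7, Fxyd1, Lgi4 and Fxyd3 lie low in proliferating cells and high under differentiation conditions.

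The genes with the pattern most like each of the 6 were found by the root mean square difference of log2(FPKM + 0.1), each gene centred on its mean, over the 12 samples and 12927 genes with a mean of at least 1 FPKM. This is a description, since the groups share the condition and the libraries. For Atp1b2 they were Npnt (0.101) and Plppr5 (0.106), for Atp1b1 Iqsec2 (0.081) and Tbc1d9b (0.0838), and for Atp1b3 Mcfd2 (0.0463) and Tex261 (0.0618). For Fxyd1 the closest was Fxyd3 (0.459), for Fxyd6 they were Kctd5 (0.136) and Snx17 (0.147), and for Fxyd7 Adam11 (0.499) and Itga2 (0.537).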

How the data were processed

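RNA-seq was made of 12 samples in 4 groups of 3, grouped by the sample titles. The authors mapped reads to mm10 with Hisat2, kept uniquely mapped reads, counted them with FeatureCounts and deposited FPKM values per sample, 1 table per condition; the program for the FPKM values and the annotation are not given in the sources used here. The FPKM values are multiples of 0.01, so the depth of each sample is unknown and no counting error can be given. The tables also hold the authors' fold changes, p-values and significance marks, which were not used. The 6 genes and the gene lists were chosen with earlier results of these data known.

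Here, 0.1 was added to the deposited FPKM values, log2 was taken, and genes with a mean of at least 0.1 FPKM over the samples of a fit were tested with limma 3.58.1 in R 4.3.3 (moderated variance with a trend, two-sided, Benjamini-Hochberg adjustment over all tested genes). NAD+ was compared with Ctrl in each condition separately; the other contrasts came from a fit of all 12 samples. Single genes had an exact permutation test. The code was tested on simulated data. Besides the 6 genes, the text names every gene of the subunit list with a mean of at least 0.1 FPKM, the 2 largest called rises and falls of each other list per comparison, and the 2 genes of closest pattern; Lgi4, Hpn, the marker genes and Nme7 were named after their values were seen. Some genes of these lists are not reported here and were left out of the list counts. Positions come from GENCODE M21 (mm10). Alternatives changed the added value, filter, scaling, variance trend, replicate block and samples. Leaving samples out of the shares and of the ratio of means was chosen after seeing the data. Python 3.11.15, pandas 2.3.3, numpy 2.4.6, scipy 1.17.1 and matplotlib 3.10.9 were used.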

Additional observations from a re-analysis of the deposited data

Results flagged for a closer look

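The effect of NAD+ on Atp1b2 differed between the conditions by a test of the difference itself: 0.62 on the log2 scale (SE 0.09, limma adjusted p = 0.0177 over 19498 genes). All 3 NAD+ samples lay below all 3 Ctrl samples in proliferating cells and above them under differentiation conditions. The gene was chosen with these values known, and the adjusted p ranged from 0.00846 to 0.0687 over the 20 alternatives.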

How the results depend on the processing

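The depth of the samples is unknown, so a limit from depth cannot be given. Of 513 values of the 6 genes under the alternatives, 454 kept direction and side of the threshold, 44 lost their call, 3 gained one and 12 reversed. The number of the 6 genes called with NAD+ under differentiation conditions was 4, and was 2 without a filter, 1 with quantile normalization, 0 without a variance trend and 1 by the rule of the study. That for the difference between the conditions was 1, and was 2 with 1 added before log2 and 0 with quantile normalization, with the replicate block and without a variance trend. The cause was not tested.

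In proliferating cells, 27 genes of all were called, 9 without a filter, 75 with a minimum mean of 1 FPKM, 59 with quantile normalization, 0 with the replicate block, 0 without a variance trend and 559 by the rule of the study. Under differentiation conditions 1357 were called, 758 with the replicate block, 619 without a variance trend and 795 by the rule of the study. For the difference 91 were called, 139 with 1 added, 26 with the block and 56 without a variance trend. Median-ratio scaling and quantile normalization moved the share of higher calls under differentiation conditions from 32.8% to 51.6% and 49.8%, for the difference from 47.3% to 77.1% and 67.7%, without NAD+ between the conditions from 44.2% to 57.2% and 49.2%, with NAD+ from 35.6% to 56.7% and 48.1%, and in proliferating cells from 33.3% to 21.2% and 27.1%.

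When 1 sample was left out, the number of the 6 genes called ran from 0 to 2 under differentiation conditions and from 0 to 1 for the difference. The number of all genes called ran from 0 to 36 in proliferating cells, from 328 to 719 under differentiation conditions and from 12 to 195 for the difference; the 36 and 195 were without replicate 1 of proliferating Ctrl. A fit with 1 sample fewer has fewer degrees of freedom.

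Reversed values were of genes not called, apart from Atp1b3 between the conditions. With median-ratio scaling and quantile normalization, Nkain1 in proliferating cells stood at -0.073 and -0.037, Fxyd6 for the difference at 0.11 and 0.092 and Atp1b3 with NAD+ at 0.17 and 0.28. With quantile normalization Atp1b3 without NAD+ stood at 0.10, with median-ratio scaling Atp1b1 under differentiation conditions at 0.016, and with 1 added Fxyd1 for the difference at -0.15. Leaving out 1 sample gave -0.11 to 0.12 for Nkain1 and -0.21 to 0.12 for Nkain4 in proliferating cells, and -0.10 to 0.015 for Atp1b1 (-2.805 to 0.415 FPKM) and -0.014 to 0.46 for Nkain3 under differentiation conditions. For the difference it gave -0.28 to 0.54 for Fxyd1 and -0.17 to 0.075 for Fxyd6.

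Same-numbered samples correlated at 0.0215 to 0.111 in proliferating cells and 0.0257 to 0.0432 under differentiation conditions around their group means. The study's methods name no pairing, and the main fits used none. Every sample correlated best with its own number under differentiation conditions and 4 of 6 did in proliferating cells, a hint from the data and not from the design. With the replicate block, the calls of Atp1b2 (limma adjusted p = 0.0697) and Fxyd7 (0.0791) under differentiation conditions and of Atp1b2 for the difference (0.0554) were lost and that of Fxyd6 (0.0481) was gained.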
